A study of Mus musculus with 3 samples.

Results

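The genes described here are 9 complement components and regulators, C3, C4b, C1ra, C1s1, C2, Cfb, Serping1, Cd55 and Cd59a, chosen as complement genes that tumor cells can make, several of them inducible by interferon. They are 9 of the 57010 genes in the count table and were matched to it by Ensembl identifier. RNA-seq was performed on MBT2, a mouse bladder cancer cell line, to find genes downstream of Asns, which encodes asparagine synthetase. The 3 libraries, 1 per condition, came from cells labelled as stably carrying a scramble plasmid, an shAsns#1 plasmid or an shAsns#2 plasmid. For other experiments, the methods of the paper name the control plasmid pLKO.1-Vector. By those methods the Asns hairpins were in pLKO.1, and stable lines were made by lentiviral infection and puromycin selection. The methods do not describe the scramble plasmid. The labels and the methods of the paper name different culture media and RNA kits. After rounding, scramble held 19326826 counts, shAsns#1 19167852 and shAsns#2 22915511. The targeted gene Asns fell from 84.4 CPM (counts brought to one common library size, with totals adjusted by TMM, a method that evens out library composition) in the scramble library to 33.5 in shAsns#1 and 27.8 in shAsns#2 (edgeR log2 fold change -1.46, standard error 0.15, adjusted p = 0.0071).

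Complement is a cascade of plasma and surface proteins that tags cells and microbes for clearance. In the classical pathway, the proteases C1r and C1s, bound to C1q, cleave C4 and C2, and the fragments form an enzyme that splits C3. Factor B does the same for the alternative pathway, and fragments of C3 then coat the target or attract leukocytes. The C1 inhibitor (gene Serping1) blocks C1r and C1s, CD55 takes apart the enzymes that split C3, and CD59 blocks the final pore. The liver makes most plasma complement, but epithelial cells, fibroblasts and tumor cells also transcribe some of these genes.

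The promoter of C3 is shown because C3 is the gene in which the libraries differed most, and that of C1s1 because its ratio to scramble with shAsns#2 came next among those beyond counting error. Both sequences are the 250 bases before the start site, from RefSeq promoter tables of GRCm38.p6, written 5′ to 3′ on the minus strand, on which both genes lie. C3 is from chr17:57228137-57228386 and C1s1 from chr6:124542360-124542609. Capitals mark matches to a motif of C/EBP transcription factors, TTGCNNAA on either strand.
C3: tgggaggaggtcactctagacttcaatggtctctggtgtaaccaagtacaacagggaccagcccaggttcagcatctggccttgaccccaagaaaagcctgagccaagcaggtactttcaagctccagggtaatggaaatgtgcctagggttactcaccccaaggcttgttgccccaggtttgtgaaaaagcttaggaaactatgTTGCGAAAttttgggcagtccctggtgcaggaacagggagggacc
C1s1: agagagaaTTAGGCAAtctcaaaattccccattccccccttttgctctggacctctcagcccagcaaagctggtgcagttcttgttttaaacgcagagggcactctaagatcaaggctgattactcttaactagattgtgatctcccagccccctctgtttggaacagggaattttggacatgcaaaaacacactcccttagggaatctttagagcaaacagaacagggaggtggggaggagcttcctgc
In C3 the match, TTGCGAAA, ran from base -45 to base -38 before the start, and in C1s1 the match, TTAGGCAA on the strand shown, ran from -242 to -235. Also searched, on both strands, were the core of the interferon-stimulated response element (GAAANNGAA) and the kappaB site. Neither sequence held a match to these. Among the 32851 promoters of the table, 9.56% held the C/EBP motif, 7.13% the interferon response core and 2.13% the kappaB motif within the same 250 bases. Promoters were found for 5 of the 9 genes, C3, C1ra, C1s1, Cd55 and Cd59a. C1s1 also had another start with its own window, chr6:124542322-124542571. That window does not reach the TTAGGCAA match and held no match to these motifs, so the match depends on the start used. The only other match to these motifs among the promoters was GAAAGGGAA in that of Cd59a, a gene with no counts. These matches describe letters, not binding sites.

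Of the 9 genes, 5 had 10 or more counts somewhere and were tested, C3, C1ra, C1s1, C2 and Cfb. The other 4, C4b, Serping1, Cd55 and Cd59a, lay at 0 to 3 counts in every library. C3 accounted for 49.4% of the counts of the 9 genes in scramble (95% Clopper-Pearson interval 48.0 to 50.7). Its share was 62.5% in shAsns#1 (61.4 to 63.6) and 73.5% in shAsns#2 (72.8 to 74.1). These intervals, like all intervals and floors here, cover counting error only. No gene of the set passed edgeR's quasi-likelihood test of both shAsns libraries against scramble at an adjusted p under 0.05. That is 0 higher and 0 lower of 5 tested, where 1.14% of all 14003 genes tested were higher and 1.51% were lower. At an unadjusted p under 0.05 there was 1, C3, and the share of all genes under that p was not counted. DESeq2 and limma-voom called 0 of the 5. The median log2 ratio of the 5 genes was 0.09 with shAsns#1 and 0.34 with shAsns#2, beside medians of 0.00 for all genes. With no filter on low counts, which also takes in C4b and Serping1, the medians were 0.14 and 0.24. Because both hairpins were set against the same scramble library, whatever was particular to that library enters both ratios. In these bulk libraries, fewer cells that express a gene and less RNA per cell cannot be told apart.

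**Figure D1:**
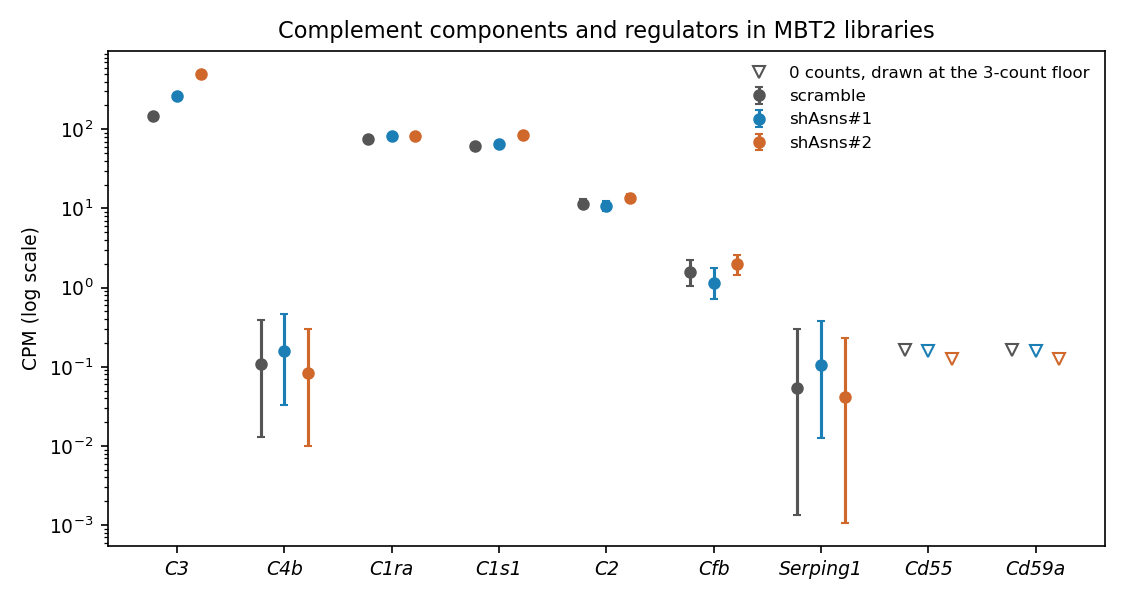
Level of each gene in CPM (log scale) in the scramble, shAsns#1 and shAsns#2 libraries, 1 library each, with 95% Poisson intervals. C3 climbs from 145 CPM (scramble) through 266 (shAsns#1) to 501 (shAsns#2), while Cd55 and Cd59a had 0 counts and are drawn as open triangles at the floor of 3 counts.

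C3, on which all complement pathways converge, was the most abundant of the 9 genes and differed most between the libraries. Its deposited counts were 2711 in scramble, 5048 with shAsns#1 and 11963 with shAsns#2. The scramble level was 145 CPM, with a 95% Poisson interval from 140 to 151. The shAsns#1 level was 266 CPM (258 to 273), and the shAsns#2 level 501 CPM (492 to 510). Both shAsns libraries lay above scramble, and shAsns#2 lay well above shAsns#1. The level with shAsns#1 was 1.83-fold that of scramble (95% counting interval 1.74 to 1.92), a log2 ratio of 0.87. With shAsns#2 it was 3.45-fold (3.31 to 3.59), a log2 ratio of 1.78. Between the hairpins, shAsns#2 was 1.88-fold above shAsns#1, a log2 ratio of 0.91 (0.87 to 0.96). By edgeR, C3 had a log2 fold change of 1.40 and a standard error of 0.34, with an unadjusted p of 0.0040 and an adjusted p of 0.079. C3 therefore did not pass that test, in which the difference between the hairpins is the only replicate spread. Over the 7 alternatives run, its adjusted p ranged from 4.7e-13 to 0.49, and 2 of them called C3. When only total counts scaled the libraries the adjusted p was 1.0e-07, and with no minimum on counts it was 4.7e-13. With at least 10 counts in every library it was 0.051, just short of a call.

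The study's methods called genes whose log2 ratio exceeded 1.5 either way with an adjusted p no larger than 0.05, and by these thresholds C3 was higher with shAsns#2 and not with shAsns#1. The exact binomial test used for this compares libraries and not conditions. C3 was the only 1 of the 5 genes past these thresholds with shAsns#2, where 2.64% of all genes were higher. With shAsns#1 none was, where 1.87% were higher. Between shAsns#2 and shAsns#1 none was either, and 0.778% of all genes were higher in shAsns#2. None of the 5 genes was lower past these thresholds, and the share of all genes that were lower was not counted. At a threshold of 1.5-fold C3 passed with shAsns#1 as well, but the share of all genes past that threshold was not counted. Among the 14003 genes, 838 had a larger ratio than C3 with shAsns#1 (5.98%) and 317 with shAsns#2 (2.26%). Of the 4688 genes with a mean of at least 1000 counts, a limit chosen after the values were seen, 17 had a larger ratio than C3 with shAsns#1, 6 had a larger ratio with shAsns#2, and 8 differed more between the hairpins.

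**Figure D2:**
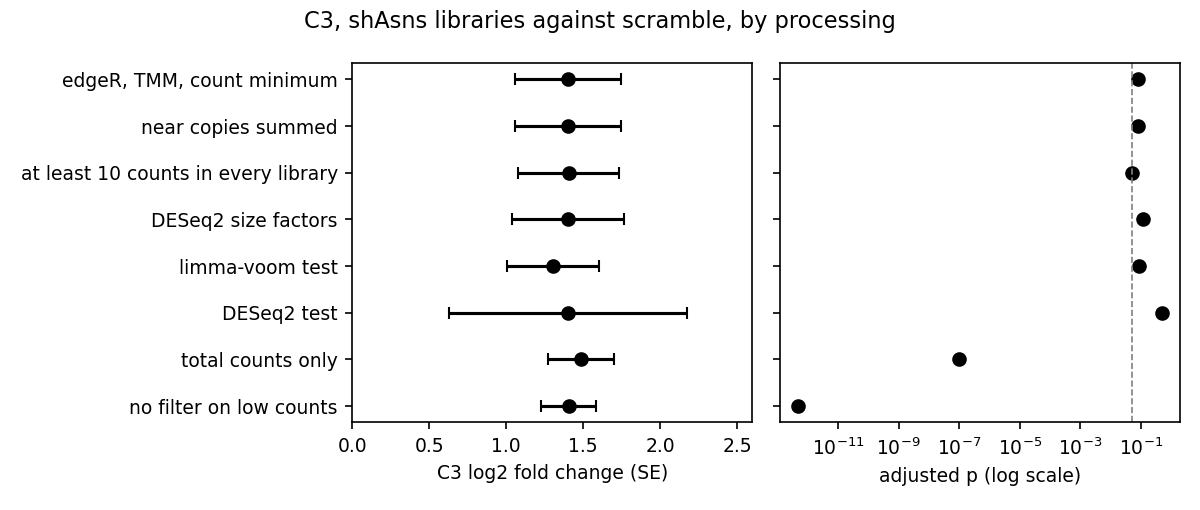
C3, both shAsns libraries against scramble, under each way of processing: the log2 fold change with its standard error (left) and the adjusted p on a log scale (right, dashed line at 0.05). The fold change lay between 1.31 and 1.49 throughout, whereas the adjusted p passed 0.05 only with total counts and with no filter on low counts. With at least 10 counts in every library the adjusted p was 0.051.

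The C3 counts were whole in every library, and no 75-base window of its transcripts occurred in the transcripts of another gene in GENCODE M21. In GRCm38, the build of that annotation, C3 (ENSMUSG00000024164) occupies bases 57203970 to 57228136 of chromosome 17. The sources used here do not give the build behind the deposited counts. The genes whose pair of log2 ratios lay nearest to that of C3 were Soat2, an enzyme that esterifies cholesterol, P2rx3, an ATP-gated channel, and Fas, a death receptor. Their distances on the log2 scale were 0.12 for Soat2, 0.14 for P2rx3 and 0.23 for Fas, and rest on 3 libraries only. The candidates were the 9838 genes that reached 100 counts somewhere, leaving out C3 and genes with only a predicted or clone name. The ratios of Soat2 were 0.91 and 1.67, those of P2rx3 0.95 and 1.90, and those of Fas 0.98 and 1.58.

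C4b, which encodes the C4 of the classical pathway in mice, was close to absent. It had 1.87 deposited counts in scramble, 3.10 with shAsns#1 and 2.04 with shAsns#2, all at or near the floor of 3 counts. Its near copy C4a had 25, 31 and 35 rounded counts, and 22.7% of the 75-base windows of C4b also occur in C4a, so the reads of this pair cannot be fully assigned. Summed, the pair had 27, 34 and 37 counts, with log2 ratios of 0.30 and 0.10 (edgeR adjusted p = 0.85). So C3 mRNA was abundant and mRNA of its structural relative C4 scarce in all 3 libraries.

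The genes of the C1 proteases, C1ra and C1s1, were the next most abundant of the set after C3. C1ra had 1401.59 deposited counts in scramble, 1572.14 with shAsns#1 and 1948.42 with shAsns#2, or 75.1, 82.7 and 81.5 CPM. The 3 libraries lay close together. Its log2 ratios were 0.14 with shAsns#1 (95% counting interval 0.03 to 0.24) and 0.12 with shAsns#2 (0.02 to 0.22), and edgeR gave a log2 fold change of 0.13 with a standard error of 0.13 (adjusted p = 0.62). C1s1 had 1131.37 deposited counts in scramble, 1223.92 with shAsns#1 and 2003.16 with shAsns#2, or 60.6, 64.4 and 83.8 CPM. Here scramble and shAsns#1 did not differ beyond counting error, and shAsns#2 stood above both. The log2 ratios were 0.09 with shAsns#1 (-0.03 to 0.21) and 0.47 with shAsns#2 (0.36 to 0.57), and shAsns#2 exceeded shAsns#1 by 0.38 (0.28 to 0.48). By edgeR, C1s1 missed the threshold, at a log2 fold change of 0.29 and a standard error of 0.18 (adjusted p = 0.41).

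C1ra and C1s1 lie side by side on chromosome 6 with the near copies C1rb and C1s2, in GRCm38 at 124512405 to 124523443 for C1ra and 124530345 to 124542359 for C1s1. Of the 75-base windows of C1ra, 40.1% also occur in C1rb, and of those of C1s1, 13.0% occur in C1s2. Each gene shared windows with 2 other genes, which together held 42.4% of the C1ra windows and 24.8% of the C1s1 windows. The sums below take in only the near copy. Neither C1ra nor C1s1 had whole deposited counts. C1rb held 1.68% of the counts of the C1ra pair in scramble, 2.18% with shAsns#1 and 1.32% with shAsns#2. C1s2 held 11.2%, 10.7% and 11.9% of the counts of the C1s1 pair, shares with overlapping intervals. C1s2 had 143, 146 and 271 counts, and its log2 ratios were 0.00 and 0.56, next to 0.09 and 0.47 for C1s1. With each pair summed, the log2 ratios were 0.15 and 0.11 for C1r and 0.08 and 0.48 for C1s (edgeR adjusted p = 0.62 and 0.41).

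C2 and Cfb encode homologous proteases of the classical and the alternative pathway, and both were lower than the C1 proteases per gene length in every library. C2 had 214 deposited counts in scramble, 205.48 with shAsns#1 and 322 with shAsns#2, or 11.5, 10.8 and 13.5 CPM. Its log2 ratios were -0.09 (-0.37 to 0.19) and 0.23 (-0.02 to 0.49), neither beyond counting error, and the edgeR adjusted p was 0.86. Cfb, the gene of factor B, had 29 deposited counts in scramble, 21.52 with shAsns#1 and 47 with shAsns#2, or 1.55, 1.16 and 1.97 CPM. Its log2 ratios were -0.42 (-1.29 to 0.42) and 0.34 (-0.36 to 1.06), neither beyond counting error at this depth. The edgeR adjusted p of Cfb was 0.99. For both genes shAsns#1 was the lowest library and shAsns#2 the highest, as far as their counts can order them. C2 and Cfb adjoin on chromosome 17, and the annotated readthrough gene Gm20547 covers 37.0% of the windows of C2 and 69.9% of those of Cfb. Gm20547 itself had 0, 5 and 0 counts. Of 15 neighboring genes of the MHC class III region that were tested, none was higher and 1, the heat shock gene Hspa1b, was lower by edgeR (log2 ratios of -2.13 and -1.47, adjusted p = 0.018), though its reads are uncertain because of its near copy Hspa1a. Over all genes 1.14% were higher and 1.51% lower.

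**Figure D3:**
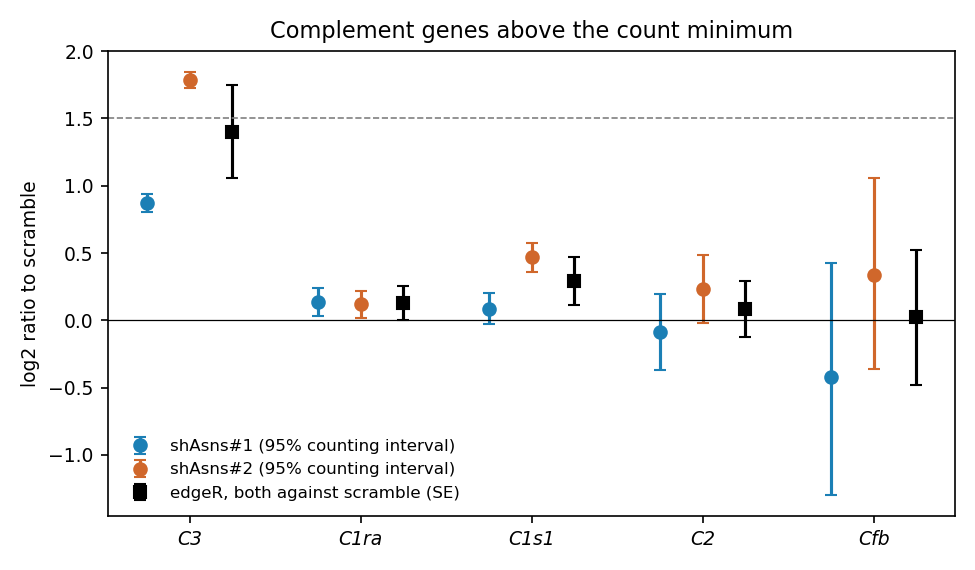
Log2 ratio to scramble of the 5 genes above the count minimum, for shAsns#1 and shAsns#2 (1 library each, bars for 95% counting intervals) and for both together by edgeR (bars for the standard error). The dashed line marks the log2 threshold of 1.5, which C3 passed with shAsns#2 at 1.78.

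The 3 regulators of the set gave next to no reads. Serping1, the gene of the C1 inhibitor and a known target of interferon-γ, had 1 count in scramble, 2 with shAsns#1 and 1 with shAsns#2. Neither Cd55 nor Cd59a had a single read, and the floor of 3 counts corresponds to 0.161 CPM in the scramble library, 0.158 in shAsns#1 and 0.126 in shAsns#2. Their near copies gave none or nearly none either, with 0 counts for Cd55b in every library and 1, 0 and 0 for Cd59b. No ratio can be given for these genes.

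Per kilobase of gene, which allows levels of different genes to be compared within a library, the order in scramble was C3, C1ra, C1s1, C2 and Cfb. As TPM, a level per length that sums to the same total in each library, computed from the deposited counts and lengths, these stood at 51.9 (95% Poisson interval 49.9 to 53.9), 46.2 (43.8 to 48.7), 38.3 (36.0 to 40.5), 7.96 (6.93 to 9.10) and 1.04, the last with an interval wholly below that of C2. Each neighbor in this order differed beyond counting error. With shAsns#2 the levels were 209 TPM for C3 (205 to 213), 61.8 for C1s1 (59.2 to 64.6) and 58.6 for C1ra (56.0 to 61.3), and the last pair did not differ beyond counting error. By TPM, C3 ranked at place 3109 of the 14003 genes in scramble, 1615 with shAsns#1 and 734 with shAsns#2. C1ra moved only from place 3439 to 3078 and 3041.

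Of a list of 51 other complement genes, 14 reached the count minimum and 22 had 0 counts in all libraries. The 14 include C1rb, C1s2 and C4a, the near copies that share sequence with C1ra, C1s1 and C4b. By edgeR 0 of the 14 were higher and 0 were lower (1.14% and 1.51% of all genes). At an unadjusted p under 0.05 there were 2, and the share of all genes under that p was not counted. DESeq2 called 1, where it called 141 higher and 191 lower of all 14003 genes. Limma-voom called 0, where it called 55 and 117. The median log2 ratios of the 14 were 0.12 and 0.14. Among the starters of the pathways, the genes C1qa, C1qb and C1qc of C1q were at 0 counts throughout, below the floors given for Cd55. Of the lectin pathway, Fcna, a ficolin, had 27, 29 and 40 counts. Its protease gene Masp1 had 4, 6 and 24 counts, with a log2 ratio of 2.11 with shAsns#2 (0.69 to 4.22, edgeR adjusted p = 0.42). Of the alternative pathway, Cfp, the gene of properdin, had 15, 24 and 24 counts, and Cfd, the gene of the protease factor D, had 0. Of the 7 genes of the terminal pore none reached the minimum, and C8g had the most, at 4, 7 and 5 counts.

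Among regulators and receptors, Cr1l was the main surface regulator transcribed, and Clu and C3ar1 lay below scramble in both shAsns libraries without passing edgeR. Cr1l encodes Crry, which in rodents protects cells from the enzymes that split C3. It had 522, 606 and 933 counts, or 28.0, 31.9 and 39.1 CPM, and log2 ratios of 0.19 (0.02 to 0.36) and 0.48 (0.32 to 0.64), with an edgeR adjusted p of 0.31. Cd46, which in mice is known mainly from the testis, had 47, 53 and 93 counts. Clu, the gene of clusterin, a chaperone that also binds the terminal complex, had 1777, 873 and 1502 counts, or 95.2, 45.9 and 62.9 CPM. Its log2 ratios were -1.05 (-1.17 to -0.93) and -0.60 (-0.70 to -0.50), and its edgeR adjusted p was 0.068. That p ranged from 1.0e-05 to 0.10 over the alternatives, of which 4 called it. C3ar1, the gene of the receptor for the C3a fragment, had 143, 79 and 86 counts, or 7.66, 4.16 and 3.60 CPM. Its log2 ratios were -0.88 (-1.30 to -0.48) and -1.09 (-1.49 to -0.69), and its edgeR adjusted p was 0.094, from 0.0069 to 0.41 over the alternatives. C3 and the gene of this receptor thus lay on opposite sides of scramble with both hairpins, though neither passed the test. C1qbp, a mitochondrial protein first found as a binder of C1q, was the most abundant receptor of the list at 134, 144 and 148 CPM (edgeR adjusted p = 0.66).

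**Figure D4:**
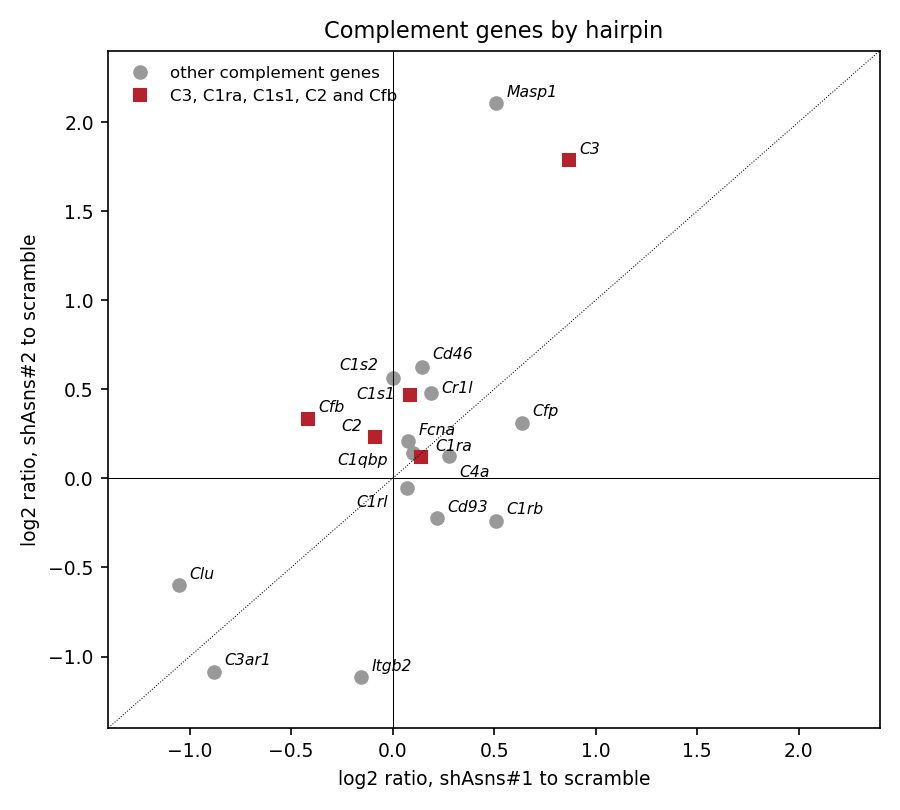
Log2 ratio to scramble with shAsns#1 (horizontal) and shAsns#2 (vertical) of the 5 tested genes of the set (squares) and the 14 other complement genes above the count minimum (circles), with a dotted line where both ratios are equal. C3 and Masp1 lie highest, Masp1 on 4, 6 and 24 counts only, and Clu, C3ar1 and Itgb2 lie below 0 on both axes. Both axes share the scramble library.

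Markers of other cell types that make complement were checked in the same libraries. In the order scramble, shAsns#1, shAsns#2, the 5 hepatocyte markers summed to 0.214, 0.210 and 0.586 CPM, and Fgb and Serpina1a were at 0 counts. The 7 leukocyte markers summed to 0.482, 0.210 and 0.293 CPM, with Tyrobp, Cd3e and Adgre1 at 0, and the 4 endothelial markers to 0.697, 0.474 and 0.963 CPM. Of 5 fibroblast markers, Pdgfra stood at 221, 218 and 230 CPM, Dcn, the gene of decorin, at 6.97, 18.8 and 25.7 CPM, Pdgfrb at 33.2, 16.2 and 22.9 CPM, and Lum and Thy1 at 1 count or none. The 5 summed to 262, 253 and 279 CPM. Dcn was higher by edgeR (log2 fold change 1.68, adjusted p = 0.018, and 0.052 by limma-voom), in the same order of libraries as C3, and its part in the C3 values was not tested. Pdgfrb had log2 ratios of -1.04 and -0.53, opposite in sign to those of Dcn (edgeR adjusted p = 0.11). Of 10 epithelial and urothelial markers, Krt5, Upk1b and Upk3a were at 0 counts and the sum was 7.66, 9.89 and 11.6 CPM, so the markers that define urothelium were all but absent from these cells labelled as bladder cancer. Of the 3 that were tested, Krt8 was at 1.23, 3.63 and 4.48 CPM (edgeR adjusted p = 0.067), Krt18 had log2 ratios of 0.06 and -0.08 (adjusted p = 0.99), and Epcam had -0.20 and 0.25 (adjusted p = 0.96).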

How the data were processed

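Libraries from MBT2 cells carrying an shAsns#1, shAsns#2 or scramble plasmid were analysed, each condition once. Estimated counts for each Ensembl gene, not scaled, and gene lengths were deposited by the authors. The library kit was TruSeq, the submitters' processing notes name Bowtie 0.12.2, with no role stated, and the sources used here give neither counter nor genome build. Of the deposited counts above 0, 32.6% to 33.0% per library were not whole (tolerance 1e-09), so reads had been shared between genes. Names came from GENCODE M21 for 52029 of 57010 genes.

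Expected counts were rounded, genes with at least 10 counts in 1 library were kept (14003), and libraries were scaled by TMM. Log2 ratios used a prior count of 0.5. Scramble was compared with the pair of shAsns libraries in edgeR 4.0.16 (glmQLFit, glmQLFTest, Benjamini-Hochberg over all genes, 0.05). This fit has 1 residual degree of freedom and takes the spread of the shAsns pair to hold for scramble too. P-values of this fit, of DESeq2 and of limma-voom measure only the spread between these libraries, pooled in part over all genes. Pairs of libraries were compared by an exact conditional binomial test, whose p-values cover counting error only. Intervals are 95% Poisson, or Clopper-Pearson for shares and ratios, and floors are 3 counts per library. The scripts were tested on simulated data. The result of 1 further promoter motif is not reported here.

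Alternatives were DESeq2 size factors, total counts, no filter, 10 counts in every library, a prior count of 2, near copies summed, a 1.5-fold threshold, voom in limma 3.58.1, and the Wald test of DESeq2 1.42.0. Named were the 9 genes, their near copies, other complement genes called or most abundant in their role, neighbors called by edgeR, and the 3 genes nearest to C3. Masp1, Cd46, Clu, C3ar1, Dcn and other single markers, the C1q genes and Cfd were named after their values were seen. The genes and lists were chosen with earlier results of these data known. Software included pandas 2.3.3, scipy 1.17.1, numpy 2.4.6 and matplotlib 3.10.9 under Python 3.11.15, and R 4.3.3.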

Additional observations from a re-analysis of the deposited data

How the results depend on the processing

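With the main processing, 0 of the complement genes were higher and 0 lower by edgeR. The count higher became 1, C3, with total counts and with no filter on low counts, and no alternative called any of them lower. Of the other complement genes 0 were called, against 2 with total counts, 2 with no filter, 1 with at least 10 counts in every library and 1 by DESeq2. Past the paper's log2 threshold 0 were called with shAsns#1, and 1 at a ratio of 1.5-fold, where the share of all genes was not counted. The edgeR prior degrees of freedom were 6.64 in the main fit, 82.8 with total counts and infinite with no filter, and their part in the C3 call was not tested. Scaling by total counts shifted the median of all genes to 0.04 (shAsns#1) and 0.11 (shAsns#2) on the log2 scale. Over all 14003 genes edgeR called 160 higher and 211 lower, while DESeq2 size factors gave 87 and 122, and total counts 740 and 517. The DESeq2 test gave 141 and 191, and limma-voom 55 and 117. With no filter, 700 were higher and 856 lower of 23533 genes. With at least 10 counts in every library, 199 were higher and 304 lower of 12548. Without shAsns#2 or without shAsns#1, the C3 log2 ratio, 1.33 on average, was 0.87 or 1.78, values with no test. No result changed direction past a threshold. The scramble library has no replicate and could not be left out.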

Other observations

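Complement shares an annotated KEGG map with coagulation, kinin and fibrinolysis genes, and these were counted after the other results were seen. Of 48 further genes that the deposited annotation puts on that map, 14 reached the count minimum, and by edgeR 1 was higher and 3 were lower, where 1.14% of all genes tested were higher and 1.51% lower. Their median log2 ratios were -0.44 with shAsns#1 and -0.62 with shAsns#2. F3, the gene of tissue factor, which starts coagulation, fell from 92.9 CPM to 39.7 in shAsns#1 and 35.7 in shAsns#2 (edgeR log2 fold change -1.30, adjusted p = 0.0071). Plat, the gene of tissue plasminogen activator, stood at 89.3, 53.5 and 38.7 CPM (adjusted p = 0.046). The bradykinin receptor gene Bdkrb2 was the third of those lower, at 5.20, 0.53 and 0.96 CPM (adjusted p = 0.023). Serpinb2, an inhibitor of plasminogen activators, was the gene that was higher, at 1.29, 5.10 and 6.61 CPM (log2 ratios of 1.97 and 2.34, adjusted p = 0.029). These calls are those of the main edgeR fit, and whether they hold under the alternatives is not given here.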
